A study of Mus musculus with 6 samples.

Results

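The genes described here encode the platelet-derived growth factor (PDGF) system, namely the receptors Pdgfra and Pdgfrb and the ligands Pdgfa, Pdgfb, Pdgfc and Pdgfd. They are 6 of the 35275 genes in the deposited tables, taken by name through the GENCODE M21 annotation, and all 6 had enough reads to be tested. RNA was sequenced from whole forebrains of C57BL/6 mice at postnatal day 9. The cKO group held 3 mice of genotype Pdgfra-CreER:Parp1fl/fl, in which Parp1 is flanked by loxP sites and Pdgfra drives a tamoxifen-dependent Cre recombinase, written CreERT2 in the protocol. The control group held 3 Parp1fl/fl littermates without Cre. Both groups received intraperitoneal tamoxifen on postnatal days 1, 2 and 3. The controls share the floxed alleles and the tamoxifen but not the recombinase, so carrying CreER and losing Parp1 cannot be told apart. Pdgfra is expressed by oligodendrocyte precursors and also by fibroblasts of the brain coverings and vessels, so the driver is not limited to one cell type. The labels do not say whether CreER sits in the Pdgfra gene itself or in an added transgene.

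PDGF ligands are secreted dimers, and their receptors are tyrosine kinases of the cell surface that pair up when a ligand binds. In the developing brain, PDGF-A made by neurons and astrocytes acts on PDGFRA of oligodendrocyte precursors and keeps them dividing and migrating. PDGF-B from the endothelium acts on PDGFRB of pericytes and recruits them to new vessels. PDGF-C and PDGF-D are secreted with an extra CUB domain that proteases must remove before they bind.

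The stretch before the start of Pdgfra is shown because this gene is both a member and the driver named for the recombinase. It covers the 250 bases before the RefSeq start on the plus strand of GRCm38.p6, at chr5:75152001-75152250, and the capitals mark the one match to the E-box letters CANNTG, the core bound by basic helix-loop-helix factors such as OLIG2.
Pdgfra: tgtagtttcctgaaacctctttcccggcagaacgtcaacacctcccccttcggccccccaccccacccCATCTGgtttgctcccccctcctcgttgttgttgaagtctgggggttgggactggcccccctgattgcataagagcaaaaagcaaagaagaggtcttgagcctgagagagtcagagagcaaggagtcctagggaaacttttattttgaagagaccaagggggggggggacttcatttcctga
The E-box match begins 182 bases before the start. Such a match is common, since 66.2% of 32851 RefSeq promoter windows of this length hold one on either strand. The window held no match on either strand to the GC box GGGCGG, which 32.7% of windows hold, or to TATAAA, which 12.4% hold. It also held none to the SOX letters ACAAAG (16.5% of windows) or ACAAT (27.7%), or to CCAAT (33.8%). Of the 6 genes, 4 had an entry in the promoter table. The labels do not say which part of the gene the driver construct carries.

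Total counts per library ran from 19934003 to 29310193 in cKO and from 17262042 to 22118915 in control forebrains. Parp1, the deleted gene, was at 80.8, 79.7 and 79.1 CPM (counts scaled to the library total and a TMM factor) in cKO replicates 1, 2 and 3 and at 90.8, 97.3 and 85.6 CPM in control replicates 1, 2 and 3. The groups did not overlap, and the gene was not called (log2 fold change -0.19, edgeR adjusted p = 0.572). These reads come from every forebrain cell, also those in which Cre is not made. Control replicate 3 lay apart on the first principal component, at 30.2 against -12.0 to -1.79 in the other libraries. That library had 39.6 CPM of the striatal gene Ppp1r1b and 174 CPM of Slc17a6, a gene of thalamic neurons. Y-linked reads were found in control replicate 1, with 1123 counts of Ddx3y, and the other 5 libraries had at most 1; sex is not labelled per mouse.

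Per length, the receptor Pdgfra and the ligand Pdgfa were the most abundant of the 6 transcripts, and Pdgfc and Pdgfd the least. Levels are given here in FPKM, the deposited fragment counts divided by gene length and library total. Over all 6 libraries the order was Pdgfra at 21.5 ± 4.26, Pdgfa at 19.8 ± 0.958, Pdgfb at 12.2 ± 1.15, Pdgfrb at 6.59 ± 0.877, Pdgfc at 2.16 ± 0.385 and Pdgfd at 1.64 ± 0.284 FPKM (SD, n = 6). Pdgfra and Pdgfa were not separated, since their ranges overlapped and Pdgfra was the higher of the pair in 4 of 6 libraries. Pdgfa, Pdgfb, Pdgfrb and Pdgfc followed each other without overlap. Pdgfc and Pdgfd overlapped, with Pdgfc higher in 5 of 6 libraries. The same order came from TMM-scaled counts per kilobase. These use the same counts and the same lengths as the FPKM, so they are no separate support. The FPKM length of Pdgfc is 3521 bp, where 5089 bp of exons are annotated. That of Pdgfd is 3052 bp, where 3154 bp are annotated. The order of Pdgfc and Pdgfd therefore depends on which length is used. Pdgfra was above Pdgfa in all 3 control libraries and in 1 of the 3 cKO libraries, a split that was not tested.

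**Figure D1:**
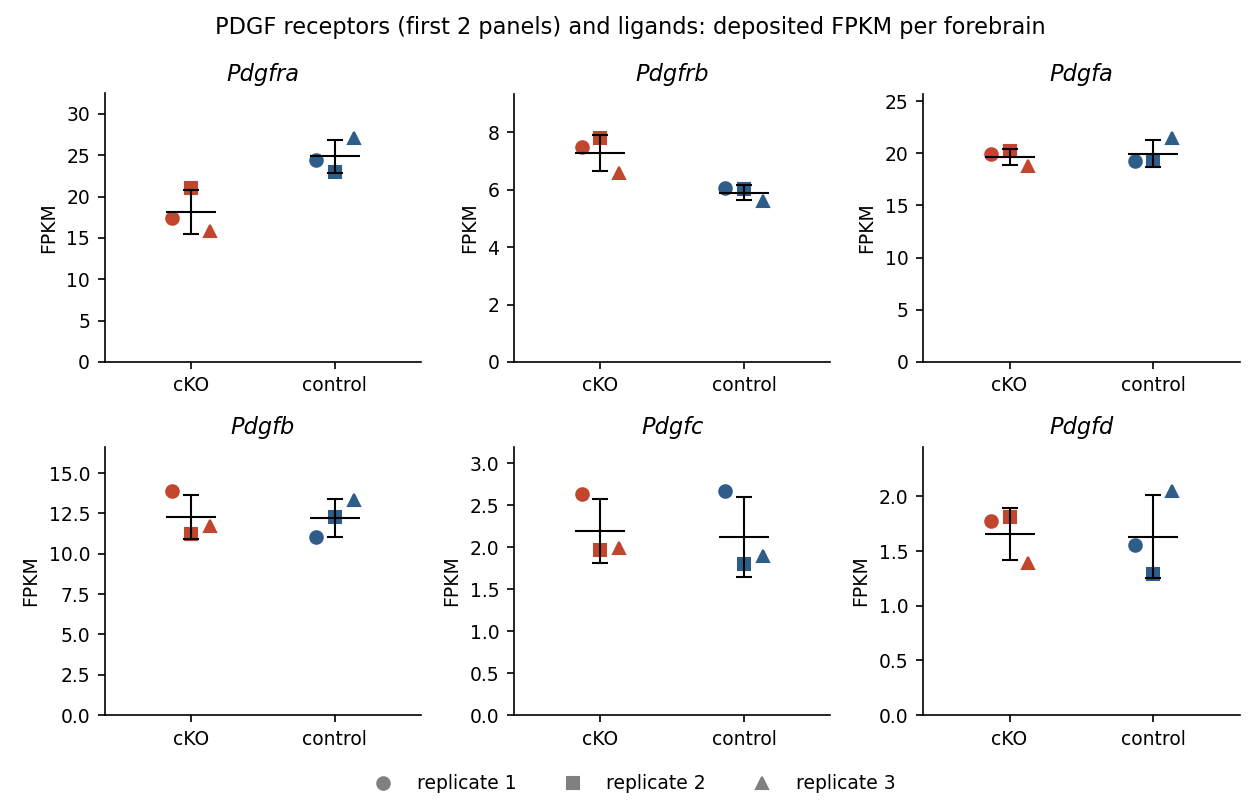
Deposited FPKM of each receptor and ligand gene in the 3 cKO and 3 control forebrains, 1 panel per gene with its own axis from 0; points are mice, bars the mean and SD. The groups do not overlap for Pdgfra (cKO 15.8 to 21.1, control 23.0 to 27.1 FPKM) and Pdgfrb (cKO 6.57 to 7.79, control 5.60 to 6.06 FPKM), and they overlap for the 4 ligands.

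The 2 receptors differed between the groups in opposite directions, and the 4 ligands were close to equal. None of the 6 was called by edgeR's quasi-likelihood test at an adjusted p under 0.05 (0 of 6), where 0.266% of the 16938 tested genes were called, 0.059% higher and 0.207% lower in cKO. An unadjusted p under 0.05 was found for 2 of 6, Pdgfra and Pdgfrb, and for 6.27% of all tested genes. Groups without overlap were likewise seen for these 2 genes, and for 11.9% of all tested genes, 5.86% lower and 6.08% higher in cKO. The median log2 fold change of the 6 genes was 0.01, beside -0.00 over all tested genes.

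Pdgfra, the receptor of oligodendrocyte precursors (ENSMUSG00000029231, chromosome 5, 75152292 to 75198215 in mm10), was lower in cKO. Its level was 17.5, 21.1 and 15.8 FPKM in cKO replicates 1, 2 and 3, against 24.5, 23.0 and 27.1 FPKM in control replicates 1, 2 and 3. Each cKO forebrain lay below each control, with cKO replicate 2 the nearest to the controls. In TMM-normalised counts the means were 119 ± 17.7 CPM in cKO forebrains and 163 ± 14.9 CPM in control forebrains (n = 3 mice per group, SD). The log2 fold change was -0.45 with a standard error of 0.11, or 0.731-fold, with a 95% confidence interval from 0.621 to 0.862. Its edgeR p was 0.0018 and its adjusted p was 0.253. An exact two-sided permutation test gave 0.1, the smallest p that 3 against 3 mice allow. In whole forebrain RNA, fewer Pdgfra-expressing cells and less Pdgfra RNA per cell cannot be told apart. Only the cKO mice carried Pdgfra-CreER, and its site is not labelled. An effect of the construct itself on the Pdgfra count cannot be told apart from these either.

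Whether Pdgfra was called depended on the test and on 1 mouse. DESeq2, run on the same counts, called it at an adjusted p of 0.0042 with nearly the same log2 fold change, -0.46, where it called 0.544% of 19836 genes. Without cKO replicate 2, edgeR called Pdgfra as well, with a log2 fold change of -0.58 (adjusted p = 0.03), where 0.181% of 17152 genes were called. In the other fits without 1 library the log2 fold change lay between -0.51 and -0.38, with edgeR adjusted p from 0.217 to 0.688, and without control replicate 3 it was -0.38. The direction was the same in all 18 alternatives. As the groups did not overlap, leaving out 1 library could hardly reverse it. The other alternatives used the same counts, so the shared direction is no separate support. Pdgfra had 2288 to 3933 reads per library, so counting error was 1.85% of the mean in cKO and 1.74% in controls, well under the spread between mice of 14.8% in cKO and 9.14% in controls.

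**Figure D2:**
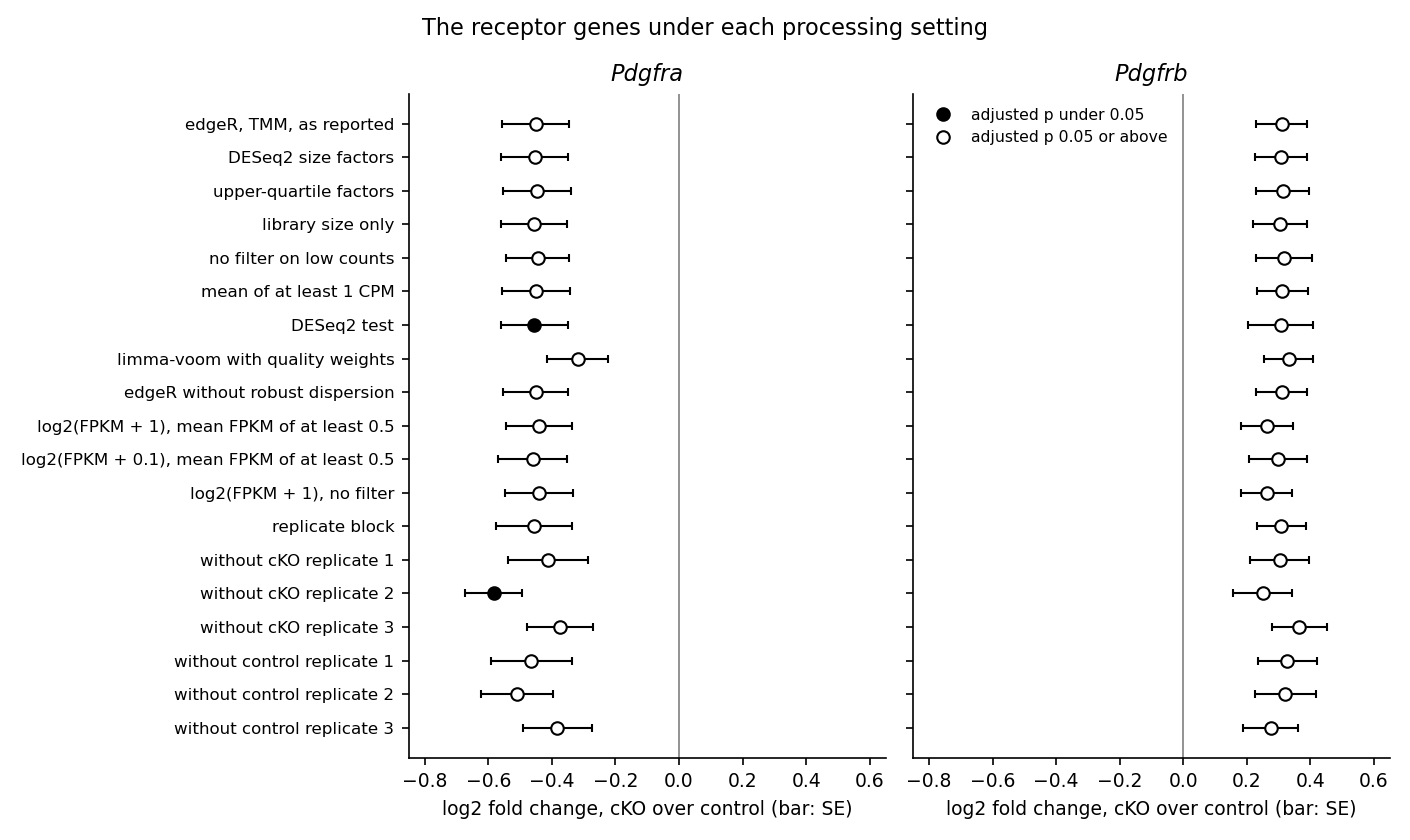
Log2 fold change of cKO over control, with its standard error, for Pdgfra and Pdgfrb under the reported fit and 18 alternatives; filled points had an adjusted p under 0.05. Pdgfra lies between -0.58 and -0.32 and is filled in 2 rows, and Pdgfrb lies between 0.25 and 0.37 and is filled in none.

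Annotated exons of Pdgfra overlap those of an antisense gene, Gm42802, by 456 bp, those of Gm42803, also on the opposite strand, by 166 bp, and those of the same-strand microRNA gene Mir7025 by 30 bp, of 10024 bp of exons in all. The libraries were made with a directional kit, but whether the counting used strand is not known here, so reads of these partners may be counted with it. Genes near Pdgfra were read beside it. Of 23 other genes that start within 500 kb, 4 were tested, none was called by edgeR, and the groups overlapped for each. Chic2 was at 33.9 ± 2.48 CPM in cKO forebrains and 33.6 ± 1.47 CPM in control forebrains, with a log2 fold change of 0.01. Lnx1, which encodes a ubiquitin ligase, had -0.10. Gsx2, a homeobox gene of striatal progenitors, was at 0.572 CPM in cKO forebrains and 0.755 CPM in control forebrains, with a log2 fold change of -0.34 and a 95% interval from -1.22 to 0.53. Kit, the stem cell factor receptor and a relative of Pdgfra, had -0.17, and control replicate 3 stood highest for it at 63.5 CPM, beside 37.5 to 44.8 CPM in the other libraries.

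Pdgfra was set beside other genes of oligodendrocyte precursors. Of a list of such genes without Pdgfra, 17 were tested. Of these, 6 fell in cKO, none rose and 11 were not called, with a median log2 fold change of -0.61. Over all tested genes, edgeR called 0.207% lower, and DESeq2 called 0.544% in either direction. DESeq2 called 11 of the 17 lower, no filter or limma-voom 9, and log2(FPKM + 1) with no filter 3. The log2 fold change was below that of Pdgfra for 11 of the 17, and at or below it for 3.04% of all tested genes. Sox10, a transcription factor of the lineage, fell to 16.8 ± 0.301 CPM in cKO, against 44.7 ± 2.98 CPM in control forebrains (n = 3 mice per group, SD; log2 fold change -1.41, edgeR adjusted p = 3.06e-06). Neu4, a sialidase gene, was at 0.888, 1.90 and 1.46 CPM in cKO replicates 1, 2 and 3 and at 9.30, 8.47 and 6.25 CPM in control replicates 1, 2 and 3, and fell by 2.47 on the log2 scale. C1ql1, which encodes a secreted synaptic protein, fell by 1.72 on the log2 scale. Cspg4, the NG2 proteoglycan, which can bind PDGF-AA, was at 26.6, 35.1 and 31.1 CPM in cKO forebrains and 63.5, 44.1 and 55.8 CPM in control forebrains. Its groups did not overlap, but it was not called (log2 fold change -0.81, edgeR adjusted p = 0.118). It was called without control replicate 2 (edgeR adjusted p = 0.00332) and by DESeq2 (adjusted p = 6.33e-07). Olig2, which specifies the lineage, fell by 0.61 on the log2 scale (edgeR adjusted p = 0.0116), but was not called without control replicate 1 (edgeR adjusted p = 0.0846) or by limma on FPKM (adjusted p of at least 0.111). Its partner Olig1 had -0.58 and was not called (edgeR adjusted p = 0.268), though it was by DESeq2 (adjusted p = 1.58e-04), by limma-voom (adjusted p = 0.0246) and by edgeR without cKO replicate 1 (adjusted p = 0.0389). Further along the lineage, 9 of 11 tested genes of premyelinating and myelinating oligodendrocytes fell, with a median log2 fold change of -1.44. Between 7 and 9 were called when 1 library was left out, 7 on filtered FPKM, and 4 of 12 on log2(FPKM + 1) with no filter.

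**Figure D3:**
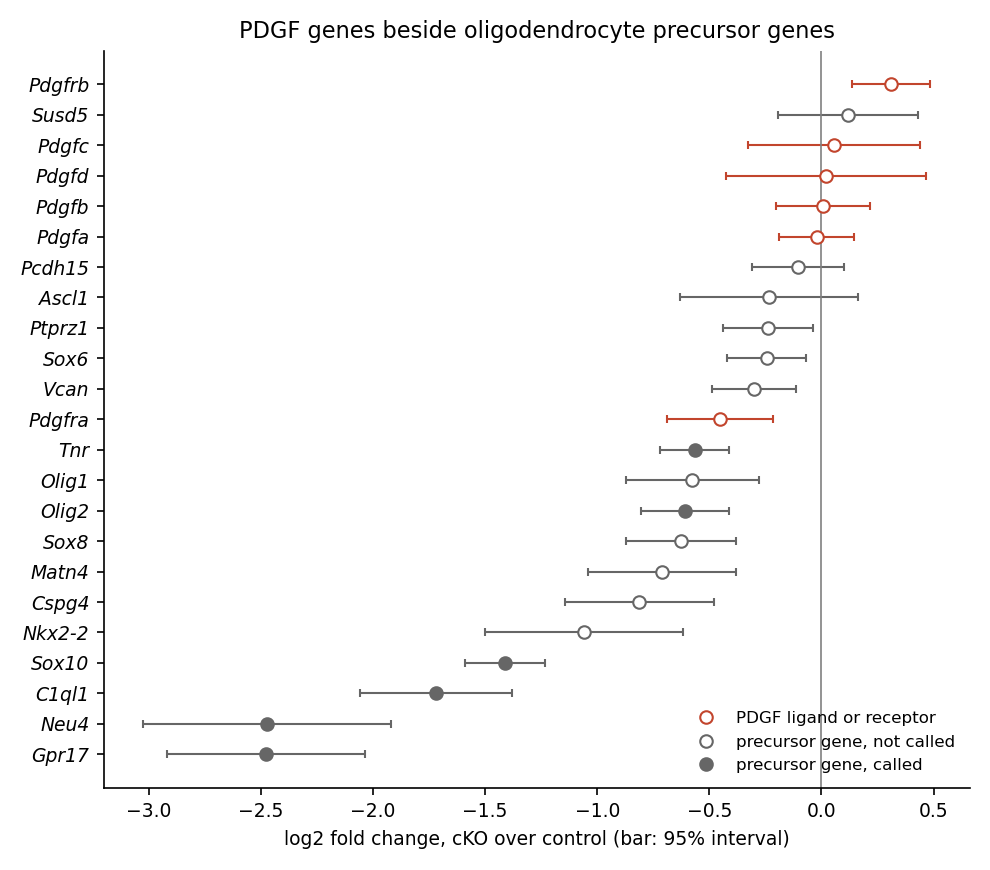
Log2 fold change of cKO over control with its 95% interval for the 6 PDGF genes and 17 oligodendrocyte precursor genes, ordered by size; filled points were called by edgeR. Pdgfra at -0.45 lies above 11 of the precursor genes, and the 4 ligands lie near 0.

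The ratio of Pdgfra to other precursor genes was then taken within each library, so that scaling between libraries had little part in it. These are ratios of whole forebrain RNA, in which fibroblasts also express Pdgfra, so they do not show a change within precursors. Relative to Sox10, Pdgfra was at a log2 ratio of 2.73, 3.01 and 2.66 in cKO and of 1.75, 1.84 and 1.997 in controls, a difference of 0.94 with no overlap. Relative to Neu4 the difference was 1.88, also with no overlap. Both had an exact two-sided permutation p of 0.1, the smallest that 3 against 3 allow, and 0.25 after adjustment over the 5 pairs compared (0.167 on ratios of counts with nothing added). Each cKO forebrain held more Pdgfra transcript per Sox10 and per Neu4 transcript than each control. The direction follows from the log2 fold changes of Sox10 (-1.41) and Neu4 (-2.47) beside that of Pdgfra (-0.45). The pairs were chosen with earlier results of these data known, so these p-values are no separate support. Relative to Olig2 and Olig1, the differences were 0.15 and 0.13, and the groups overlapped (exact permutation p = 0.3 and 0.6). Relative to Cspg4 the difference was 0.35, and whether the groups overlapped depended on the 0.25 CPM added before logs. With it they just overlapped (exact permutation p = 0.2). Without it, the ratio of Pdgfra to Cspg4 counts was 4.24, 3.98 and 3.410 in cKO and 2.52, 3.405 and 3.22 in controls, with no overlap (exact permutation p = 0.1, adjusted p = 0.167).

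Pdgfrb, the receptor of pericytes, smooth muscle and fibroblasts (ENSMUSG00000024620, chromosome 18, 61045150 to 61085061), was higher in cKO. Its level was 7.49, 7.79 and 6.57 FPKM in cKO replicates 1, 2 and 3, against 6.06, 6.02 and 5.60 FPKM in control replicates 1, 2 and 3. Each cKO forebrain lay above each control, and cKO replicate 3 was the nearest to them. The means were 39.6 ± 3.12 CPM in cKO forebrains and 31.9 ± 1.11 CPM in control forebrains (n = 3 mice per group, SD), 1.24-fold with a 95% confidence interval from 1.10 to 1.40. Its log2 fold change was 0.31, with a standard error of 0.08, and edgeR did not call it (adjusted p = 0.278). An exact two-sided permutation test gave 0.1, as for Pdgfra. None of the 18 alternatives called it, and its adjusted p in them was at least 0.0871. Without control replicate 3 the log2 fold change was 0.28.

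Most genes of mural cells and fibroblasts, and of endothelium as well (14 of 15), had positive log2 fold changes. Over all tested genes, 50.2% had a negative one. Of 15 mural genes, all tested, none was called by edgeR, 1 was called by DESeq2 and 3 had an unadjusted p under 0.05. DESeq2 called 0.544% of all genes it tested. An unadjusted edgeR p under 0.05 was found for 6.27% of all tested genes. Of the 15, 12 had a positive log2 fold change, with a median of 0.15. Their summed level ran from 220 to 317 CPM in cKO forebrains and from 237 to 257 CPM in control forebrains. Rgs5, an abundant pericyte gene, was at 123, 102 and 68.0 CPM in cKO replicates 1, 2 and 3 and at 81.1, 95.4 and 66.0 CPM in control replicates 1, 2 and 3, and the groups overlapped. Notch3, a Notch receptor of mural cells, had a log2 fold change of -0.03. Tbx18, a transcription factor of mural cells, was at 8.82 ± 1.72 CPM in cKO forebrains and 4.82 ± 0.560 CPM in control forebrains and edgeR did not call it (log2 fold change 0.86, adjusted p = 0.105). It was called by DESeq2 (adjusted p = 0.00977), by edgeR with no filter (adjusted p = 0.00219) and by edgeR without cKO replicate 3 (adjusted p = 0.0355) or control replicate 3 (0.0392). Kcnj8, a potassium channel gene of pericytes, and Anpep, an aminopeptidase gene, each had 0.48. Exons of Tbx18 overlap a gene on the opposite strand by 970 bp.

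Fibroblast genes, which mark cells that express both receptors, had a median log2 fold change of 0.34 over 15 tested genes. None was called by edgeR, 1 (Bgn) was called by DESeq2 and 4 had an unadjusted p under 0.05. Of these genes, 13 had a positive value and 8 had one above that of Pdgfrb. Over all tested genes, 6.27% had an unadjusted p under 0.05, and 8.18% had a log2 fold change at or above that of Pdgfrb. Their summed level ran from 505 to 709 CPM in cKO forebrains and from 472 to 531 CPM in control forebrains, so the groups overlapped. Col6a2, a collagen VI chain, was at 36.0, 34.5 and 35.7 CPM in cKO forebrains and 29.1, 28.8 and 26.3 CPM in control forebrains, with no overlap (log2 fold change 0.34, edgeR adjusted p = 0.182). Bgn, the proteoglycan biglycan, had 0.55 and Col1a1, a collagen I chain, 0.56, and edgeR called both without cKO replicate 3 (adjusted p = 0.0372 and 0.0172), and Bgn also with no filter (adjusted p = 0.023). Lum, the proteoglycan lumican, had 1.11 and Dcn, the proteoglycan decorin, had 0.23. Relative to the mean of all libraries, the fibroblast list was at 0.35 and 0.40 (log2) in cKO replicates 1 and 2 and at -0.18 in cKO replicate 3. The part of mural and fibroblast cells in the Pdgfrb value was not tested.

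**Figure D4:**
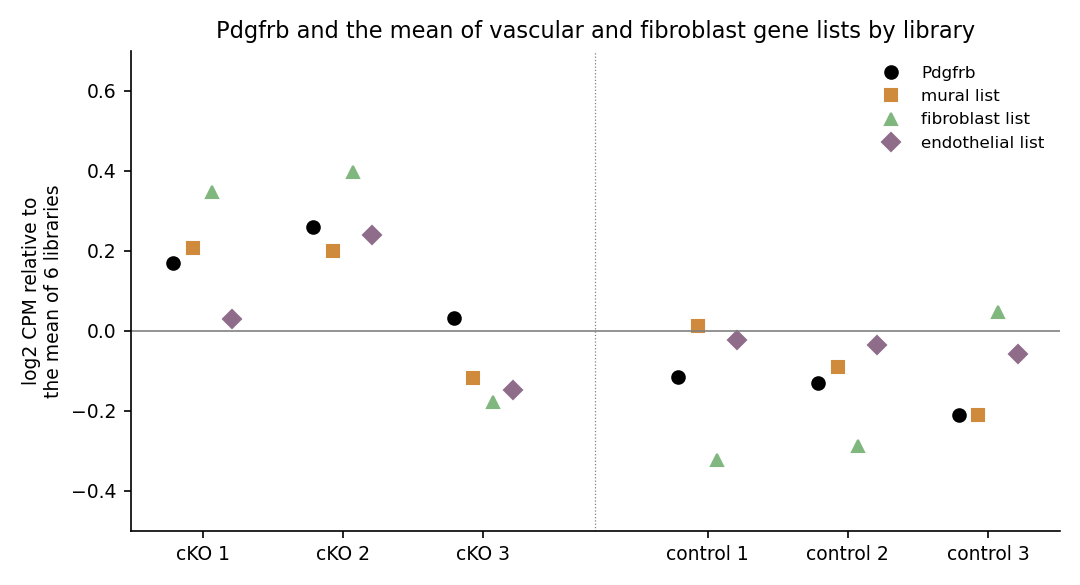
Log2 CPM of Pdgfrb and the mean log2 CPM of the mural, fibroblast and endothelial gene lists in each library, relative to the mean of the 6 libraries. Pdgfrb is above 0 in the 3 cKO libraries and below 0 in the 3 controls, while the lists cross between the groups.

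Taken as a pair, the receptors held different shares of their sum in each genotype. Pdgfra made up 70.0%, 73.0% and 70.7% of the summed receptor FPKM in cKO replicates 1, 2 and 3, against 80.2%, 79.3% and 82.9% in control replicates 1, 2 and 3. The shares were tight within each group, at 71.2% ± 1.60 in cKO and 80.8% ± 1.86 in controls (n = 3 mice per group, SD), and did not overlap. On the log2 scale the ratio of Pdgfra to Pdgfrb was lower in cKO by a difference of -0.76, at 1.58 ± 0.114 in cKO and 2.34 ± 0.176 in controls. The exact two-sided permutation p was 0.1, the smallest possible, and 0.25 after adjustment over the 5 receptor and ligand pairs compared. Each cKO forebrain was already below each control for Pdgfra and above each control for Pdgfrb. The lack of overlap in share and ratio, and this p, follow from that and are no separate support. The difference lay between -0.83 and -0.66 over the fits without 1 library. The summed receptor level was 25.4 ± 3.28 FPKM in cKO and 30.8 ± 1.81 FPKM in controls (exact permutation p = 0.1). The groups just missed overlap, at 28.9 FPKM in cKO replicate 2 and 29.1 FPKM in control replicate 2. FPKM is scaled by library total alone. Divided by the TMM factors of these libraries, 0.995 and 1.01, the values change order, so the lack of overlap depends on the scaling. Most of the sum is Pdgfra, so this p is no separate support either.

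**Figure D5:**
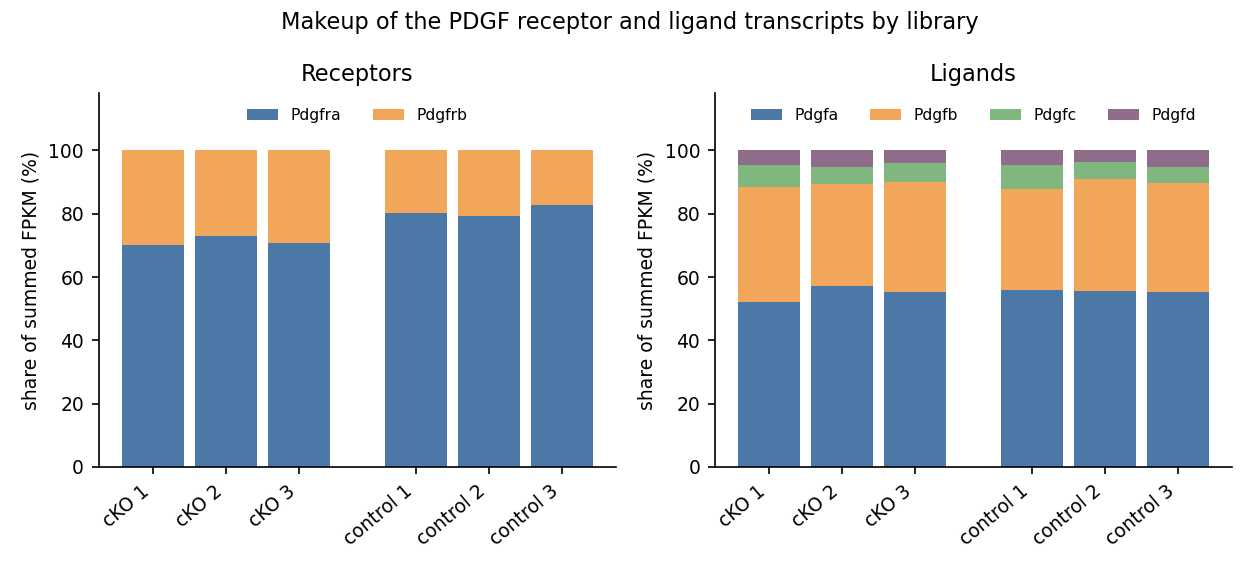
Share of each gene in the summed FPKM of the 2 receptors (left) and of the 4 ligands (right) in each library, as stacked bars from 0 to 100%. Pdgfra holds 70.0% to 73.0% of the receptor sum in cKO and 79.3% to 82.9% in controls, while the ligand shares overlap between the groups.

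The ligand genes showed no difference beyond the spread between mice. Pdgfa, the precursor mitogen (ENSMUSG00000025856, chromosome 5, 138976014 to 138997370), was at 19.9, 20.2 and 18.8 FPKM in cKO replicates 1, 2 and 3 and at 19.2, 19.2 and 21.4 FPKM in control replicates 1, 2 and 3. The groups overlapped, with control replicate 3 the highest of all 6. The log2 fold change was -0.02, and the 95% interval of the fold ran from 0.878 to 1.11 (edgeR adjusted p = 0.975). Of the 6 genes it had the narrowest interval. Its exons overlap those of the antisense gene 6330403L08Rik by 813 of 3119 bp, and that gene was at 17.4 ± 1.20 CPM in cKO forebrains and 18.0 ± 1.49 CPM in control forebrains, with a log2 fold change of -0.05. As the strand setting is not known, reads of the pair cannot be told apart.

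Pdgfb, the ligand that recruits pericytes (ENSMUSG00000000489, chromosome 15, 79995874 to 80014977), was at 13.9, 11.3 and 11.7 FPKM in cKO and at 11.0, 12.3 and 13.4 FPKM in controls. Its groups covered nearly the same range. The log2 fold change was 0.01, with a 95% interval of the fold from 0.869 to 1.16 (edgeR adjusted p = 0.994). Endothelial genes, the vascular source of Pdgfb, had a median log2 fold change of 0.07 over 15 tested genes, of which 14 were positive. Over all tested genes, 50.2% were negative. None of the 15 was called by edgeR or DESeq2, and 0 had an unadjusted p under 0.05. Emcn, an endothelial sialomucin gene, had 0.33, Esam, a junction gene, 0.14, and Flt1, a VEGF receptor, 0.13. Cldn5, a tight junction gene of brain endothelium, was at 63.2 ± 6.51 CPM in cKO forebrains and 58.7 ± 4.88 CPM in control forebrains.

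Pdgfc (ENSMUSG00000028019, chromosome 3, 81036416 to 81214040), which encodes a ligand of PDGFRA, was at 2.64, 1.97 and 1.99 FPKM in cKO and at 2.67, 1.81 and 1.90 FPKM in controls. Replicate 1 was the highest of each group. Pdgfd (ENSMUSG00000032006, chromosome 9, 6168584 to 6378850), a ligand of PDGFRB, was at 1.78, 1.81 and 1.39 FPKM in cKO and at 1.56, 1.29 and 2.04 FPKM in controls, and both the lowest and the highest value came from controls. Their log2 fold changes were 0.05 and 0.02, and neither was called (edgeR adjusted p = 0.973 and 0.993). These genes had the fewest reads, 137 to 205 per library for Pdgfc and 82 to 138 for Pdgfd. Their 95% intervals of the fold were the widest, from 0.796 to 1.36 for Pdgfc and from 0.744 to 1.38 for Pdgfd. A difference inside those bounds is compatible with these data. For Pdgfc the spread between mice was 15.4% of the mean in cKO and 22.1% in controls, where counting error alone gives 7.30% in cKO and 8.19% in controls. For Pdgfd the spread was 13.2% in cKO and 24.3% in controls, where counting error alone gives 9.00% in cKO and 9.92% in controls. Exons of Pdgfc overlap the antisense gene Gm16000 by 147 bp, but that gene had at most 4 reads in a library.

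The shares of the ligand sum overlapped between the groups. Pdgfa held 55.0% ± 2.60 of the summed ligand FPKM in cKO and 55.6% ± 0.225 in controls, and Pdgfb 34.3% ± 2.19 in cKO and 34.0% ± 1.82 in controls (n = 3 mice per group, SD). Pdgfc and Pdgfd held 6.12% and 4.63% in cKO and 5.95% and 4.51% in controls. The ligand sum was 35.8 ± 2.21 FPKM in cKO and 35.9 ± 2.43 FPKM in controls. The log2 ratio of Pdgfa to Pdgfb differed by -0.03 and that of Pdgfc to Pdgfd by 0.02 between cKO and control, each with an exact permutation p of 0.9. Set against its main ligand, Pdgfra had a log2 ratio to Pdgfa of 1.48, 1.73 and 1.42 in cKO and of 1.93 to 2.01 in controls, a difference of -0.44 with no overlap (exact permutation p = 0.1, adjusted p = 0.25). As Pdgfa had a log2 fold change of -0.02, the ratio of Pdgfra to Pdgfa mostly repeats the Pdgfra difference and is no separate support. The log2 ratio of Pdgfrb to Pdgfb differed by 0.29, and its groups overlapped.

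Proteases that activate PDGF-C and PDGF-D, their inhibitors and co-receptors were read as a list of 13 genes, all tested, of which none was called by edgeR (median log2 fold change 0.02). An unadjusted p under 0.05 was found for 2 of them, and for 6.27% of all tested genes. DESeq2 called 1, Cspg4, described above. Plat, tissue plasminogen activator, which cleaves PDGF-C, had -0.08. Plau, urokinase, which cleaves PDGF-D, was low, at 2.17, 1.49 and 1.39 CPM in cKO forebrains and 1.21, 1.15 and 0.639 CPM in control forebrains, and its groups did not overlap (log2 fold change 0.75, edgeR adjusted p = 0.776). St14, matriptase, another protease of PDGF-D, was at 0.839, 0.646 and 0.626 CPM in cKO forebrains and 1.21, 1.01 and 1.10 CPM in control forebrains (log2 fold change -0.66, edgeR adjusted p = 0.816). Serpini1, the neuronal inhibitor of tissue plasminogen activator, had -0.17, and its groups overlapped.

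The signalling genes below the receptors mostly had small differences, with Fyn the lowest and Shc1 the highest log2 fold change. Of 36 adaptor, kinase and RAS pathway genes, all tested, none was called by edgeR, 1 was called by DESeq2 and 3 had an unadjusted p under 0.05. Such a p was found for 6.27% of all tested genes. The median log2 fold change of the 36 was -0.01, and 29 of them lay within 0.1 of 0. Of all tested genes a smaller share, 53.0%, lay within it, but the 36 were not matched to them on expression level. The largest difference was that of Fyn, a SRC-family kinase of neurons and oligodendroglia. It was at 210, 224 and 230 CPM in cKO forebrains and at 278, 267 and 294 CPM in control forebrains, with no overlap and a log2 fold change of -0.34. It was not called as reported (edgeR adjusted p = 0.0652), but was in 6 of 18 alternatives. These were upper-quartile scaling (adjusted p = 0.0488), library size (0.0305), no filter (0.00698), limma-voom (0.0348), DESeq2 (0.00154) and edgeR without control replicate 3 (0.0267). Shc1, an adaptor that binds active receptors, had 0.32 and its groups overlapped. Ptpn11, the phosphatase SHP2, had -0.14, with 169 to 178 CPM in cKO forebrains and 182 to 201 CPM in control forebrains. Gab1, a docking adaptor, had -0.16.

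Genes that dampen receptor signals were read in the same way. Of 14 such genes, all tested, none was called by edgeR or DESeq2 and 0 had an unadjusted p under 0.05. Their median log2 fold change was 0.02, and the groups overlapped for all 14. Dusp6, a phosphatase of ERK and a common readout of its activity, was at 38.0 ± 2.69 CPM in cKO forebrains and 33.3 ± 2.80 CPM in control forebrains (log2 fold change 0.19, edgeR adjusted p = 0.794). The feedback inhibitors Spry4 and Spry2 had 0.16 and 0.07, and Sla, an adaptor that lowers receptor levels, had 0.20.

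Relatives of the PDGF genes in the PDGF and VEGF families and the same receptor class were read too. Of 14 tested genes none was called by edgeR, 1 was called by DESeq2 and 3 had an unadjusted p under 0.05, with a median log2 fold change of 0.09. Csf1r, the microglial receptor for CSF1 and IL-34, was at 95.3, 89.0 and 106 CPM in cKO forebrains and 82.9, 68.8 and 60.2 CPM in control forebrains, with no overlap (log2 fold change 0.46, edgeR adjusted p = 0.295). It was called without control replicate 1 (adjusted p = 0.0436) and by DESeq2 (adjusted p = 0.0128), and its exons overlap a gene on the opposite strand by 873 bp. Its ligand genes Il34 and Csf1 had 0.30 and 0.31, and Vegfc, a lymphatic growth factor, had 0.43. Microglial genes were higher beside Csf1r, with all 12 list members, Csf1r among them, positive. Of the 12, 9 had no overlap, as did 11.9% of all tested genes. None was called by edgeR, and 4 were called by DESeq2, which called 0.544% of all genes it tested. An unadjusted edgeR p under 0.05 was found for 8, and for 6.27% of all tested genes. Their summed level was 544 to 661 CPM in cKO forebrains and 345 to 524 CPM in control forebrains, lowest in control replicate 3. Their part in the Csf1r value was not tested. Of 12 other receptor tyrosine kinases of glia none was called by edgeR or DESeq2, and 2 had an unadjusted p under 0.05. Erbb3, a neuregulin receptor of the oligodendrocyte lineage, was at 1.68, 1.82 and 1.64 CPM in cKO forebrains and 3.00, 4.23 and 2.60 CPM in control forebrains, with no overlap (log2 fold change -0.94, edgeR adjusted p = 0.279). Erbb4, another neuregulin receptor, and Fgfr1, an FGF receptor, each had -0.14, and Erbb2, the co-receptor of both neuregulin receptors, had 0.23.

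The genes whose profile over the 6 libraries was most like that of each receptor were found by the root mean square difference of centred log2 CPM among 15240 genes. The nearest to Pdgfra were Tns3, a focal adhesion adaptor, at 0.07, then Gm10548 at 0.07, Id3, an inhibitor of basic helix-loop-helix factors, at 0.08, and Smoc1, a secreted matrix protein, at 0.09, where Pdgfra itself varied by 0.27. Of these, Tns3 fell in cKO (log2 fold change -0.46, edgeR adjusted p = 0.0299), but 9 of 18 alternatives did not call it, with adjusted p up to 0.376. The other 3 were not called by edgeR, and Id3 was called in 2 of 18 alternatives. The nearest to Pdgfrb were Trim25 at 0.02, Vim, the intermediate filament vimentin, at 0.04, Cep164 at 0.04 and Prc1 at 0.05, where Pdgfrb varied by 0.17. None of these 4 was called by edgeR. For the ligands, whose own variation was between 0.07 and 0.22, the nearest were Zbtb41 and Klhl42 to Pdgfa, Palmd and Pdcd10 to Pdgfb, Faap24 and Gm10118 to Pdgfc, and Fam196b and Tjp3 to Pdgfd.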

How the data were processed

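The deposited read counts are whole numbers per Ensembl gene, 1 column per mouse. The authors' FPKM values equal the deposited count divided by 1 length per gene and by the table total, so both tables hold the same measurement. The submitters' processing notes list CASAVA, STAR 2.5, HTSeq 0.6.1, DESeq and mm10 but give none a role. Neither annotation release nor strand setting is given in the sources used here. Libraries came from poly-A RNA and a directional kit, per the labels' protocols, 1 per mouse.

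Counts were tested with edgeR 4.0.16 (filterByExpr, TMM, robust quasi-likelihood, two-sided) in R 4.3.3, which kept 16938 genes, with Benjamini-Hochberg adjustment over them. CPM values are TMM-scaled, and 0.25 was added before logs. The scripts were tested on simulated data. No 2 libraries agreed within sampling noise (chi-square per degree of freedom from 4.31 to 24.0). Same-numbered mice did not deviate together (r from -0.05 to -0.00), so no block was used.

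Alternatives were scaling by DESeq2's size factors, by upper quartiles or by library size, a filter at a mean of 1 CPM or none, DESeq2 1.42.0, limma-voom (limma 3.58.1), edgeR without robust dispersion, limma on log2 FPKM, a replicate block, and each library left out. The members, lists and tests were chosen with earlier results of these data known. The naming rule took the members, Parp1, the 4 genes of smallest p of each pathway list and the 3 of each cell list, and fixed markers. The neighbours of Pdgfra, the genes most like each member and Plat were also read, and Plat was chosen after its value was seen. Some genes the rule takes are not printed. Exons of Olig1, Notch3, Gab1, Il34, Fgfr1 and Erbb2 also overlap a gene on the opposite strand.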

Additional observations from a re-analysis of the deposited data

How the results depend on the processing

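The direction of Pdgfra and Pdgfrb was the same in all 18 alternatives, which follows largely from their groups without overlap and from the shared counts. Pdgfra was called in 2 of them, by DESeq2 (log2 fold change -0.46, 1 member called) and without cKO replicate 2 (-0.58); the cause of the difference between tools was not tested. Left out in turn, the libraries gave a range from -0.58 to -0.38 for Pdgfra, from 0.25 to 0.37 for Pdgfrb, from -0.054 to 0.036 for Pdgfa, from -0.070 to 0.077 for Pdgfb, from -0.074 to 0.24 for Pdgfc and from -0.13 to 0.23 for Pdgfd, with 0 to 1 member called. With limma-voom, Pdgfa was at 0.035 and Pdgfb at -0.0038, signs opposite to those reported, so the ligands have no settled direction. The ratio of Pdgfa to Pdgfb ran from -0.11 to 0.049 and that of Pdgfc to Pdgfd from -0.22 to 0.21 over the fits without 1 library, and the other ratios kept their sign. The level order was the same on both scales, which share the counts and the gene lengths.

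Over all genes, 10 were called higher and 35 lower. The counts were 50 higher and 61 lower with no filter, 49 and 59 with DESeq2, 4 and 20 on log2(FPKM + 1) or log2(FPKM + 0.1) for genes averaging 0.5 FPKM or more, and 3 and 14 on log2(FPKM + 1) with no filter. Without robust dispersion 6 were higher. Without 1 library the counts ran from 4 to 19 higher and from 24 to 44 lower. With the replicate number as a block, 5 were higher and 27 lower, and no member was called (Pdgfra adjusted p = 0.593, Pdgfrb 0.460). The ratio of Pdgfra to Pdgfrb differed by -0.76 (exact sign-flip p = 0.25, the smallest that 3 pairs allow). That p too follows from the values of the single genes. The list counts under each alternative and the count ratios with nothing added were chosen after seeing the data. The precursor list (6 lower) had 5 to 9 lower genes without 1 library and 3 to 11 under the others. The observed spread between mice was above counting error for Pdgfc and Pdgfd in both groups, but it rests on 3 mice per group and was not tested.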
